A study of Mus musculus with 6 samples.

Results

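The small leucine-rich proteoglycans measured here were the 10 genes Dcn, Lum, Bgn, Fmod, Ogn, Aspn, Prelp, Podn, Kera and Omd, chosen by name from a known gene family and found through the gene symbols of the array's annotation. They were 10 of the 18193 genes that had a probe set with a single symbol, and were read by 21 of 45101 probe sets. RNA came from C3H10T1/2, a line of mouse mesenchymal cells that can take on fat, cartilage or bone fates in culture. The series asked which genes BMP4, a bone morphogenetic protein, changes as these cells commit to the fat lineage. The treated group had received BMP4 at 50 ng/ml while proliferating, the control group had not, and total RNA of both was taken after confluence, with 3 samples in each group and 1 single-colour array per sample. Both groups come from 1 cell line. Whether replicates were grown as separate cultures is not in the labels, and each p-value therefore speaks only to variation among these 6 arrays, possibly of technical origin.

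Small leucine-rich proteoglycans are secreted core proteins built of leucine-rich repeats that lie on collagen fibrils and set fibril diameter and spacing. Class I holds decorin (Dcn) and biglycan (Bgn), which carry chondroitin or dermatan sulfate chains, and asporin (Aspn), which does not. Class II holds lumican (Lum), fibromodulin (Fmod), keratocan (Kera), prolargin (Prelp) and osteoadherin (Omd), several of which carry keratan sulfate, while osteoglycin (Ogn) is of class III and podocan (Podn) of a separate class. Several bind growth factors as well as collagen, and biglycan and fibromodulin are known from tendon and bone stem cell niches. Many of the genes sit side by side in the genome. In the RefSeq gene order of GRCm38.p6 the protein-coding genes Dcn, Lum, Kera and Epyc follow each other, as do Ecm2, Aspn, Omd and Ogn, and Optc, Prelp and Fmod.

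The stretches of 250 bases before the annotated starts of Aspn, Omd and Ogn are shown because these neighbours, read from the same strand, changed differently. They come from the RefSeq promoter table for GRCm38.p6 and lie on the plus strand of chromosome 13, at chr13:49544193-49544442 for Aspn, chr13:49582212-49582461 for Omd and chr13:49607765-49608014 for Ogn. Capitals mark the letters CANNTG, the E-box bound by helix-loop-helix factors.
Aspn: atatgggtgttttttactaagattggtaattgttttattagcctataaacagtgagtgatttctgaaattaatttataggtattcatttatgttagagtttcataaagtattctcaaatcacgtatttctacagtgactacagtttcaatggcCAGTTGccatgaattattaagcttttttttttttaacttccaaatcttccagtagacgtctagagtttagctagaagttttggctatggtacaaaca
Omd: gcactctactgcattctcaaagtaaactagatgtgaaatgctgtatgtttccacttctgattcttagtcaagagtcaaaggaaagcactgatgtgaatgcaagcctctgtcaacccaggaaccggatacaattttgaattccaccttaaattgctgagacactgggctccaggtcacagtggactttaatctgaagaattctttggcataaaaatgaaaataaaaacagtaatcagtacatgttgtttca
Ogn: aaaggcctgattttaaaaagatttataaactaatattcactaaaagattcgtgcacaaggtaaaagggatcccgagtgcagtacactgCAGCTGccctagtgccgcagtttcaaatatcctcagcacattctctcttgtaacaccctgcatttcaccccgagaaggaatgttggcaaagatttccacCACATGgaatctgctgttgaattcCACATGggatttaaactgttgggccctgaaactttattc
The Aspn window held 1 E-box, the Ogn window 3 and the Omd window 0, and 66.2% of all 32851 windows of this length held at least 1. The letters TATAAA, searched on both strands like the other motifs, occurred 2 times in the Aspn window and 2 times, overlapping each other, in the Ogn window, but not in the Omd window, against 12.4% of all windows with a match. The SMAD-binding letters CAGAC were in none of the 3 windows, and 42.2% of all windows held them. Of the 8 members with an entry in that table, Fmod had 2 matches to CAGAC and Prelp 1. The letters GGCGCC, which SMADs of the BMP branch can bind, matched 2 times in 1 of the 2 Podn windows, and 9.59% of all windows held them. The TATAAA matches began at -207 and -178 from the Aspn start and at -229 and -227 from the Ogn start. The Sox letters ACAAT matched 1 time each in the Aspn and Omd windows, against 27.7% of all windows. The AP-1 letters TGACTCA were in none of the 3, against 4.46%. G and C made up 30% of the Aspn, 38.4% of the Omd and 42% of the Ogn window, against a median of 52.4%. The shares over all windows were not matched for this. These matches describe the letters only.

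The median signal was 37.6 to 42.6 on BMP4 arrays and 35.2 to 37.3 on control arrays, and the 2% trimmed mean was 150 on each. No detection calls were used here, so a signal was read as above background when it exceeded the highest of 27 bacterial control probe sets on its own array, which was 23.5 to 29.1 with BMP4 and 16.6 to 21 without. The ratio of 3′ to 5′ signal of beta-actin, a sign of RNA integrity, was 1.17 to 1.19 with BMP4 and 1.16 to 1.27 without. All 11 markers of mesenchymal fibroblasts lay above background on all 6 arrays and summed to 53157 to 62458 with BMP4 and 48434 to 59529 without. Of these 2 were lower, Pdgfra by -0.90 (log2, limma adjusted p = 6.34e-05, and lower on all 3 of its probe sets) and Twist1 by -0.48 (adjusted p = 0.044, past the threshold without BMP4 replicate 2 but in no other fit with 1 array left out). The Twist1 call was also lost without the signal filter described below (adjusted p = 0.107) and with quantile normalization (0.0593). It was lost too without the intensity trend (0.143) and with the replicate number as a block (0.0574). The count of 2 rests on the brightest probe set of each gene. A dimmer probe set was also lower for Prrx1 (log2 -0.49, limma adjusted p = 0.0014) and for Col3a1 (-0.45, adjusted p = 0.0352). Their brightest gave -0.18 (adjusted p = 0.209) and -0.01 (adjusted p = 0.976). Fat cell markers summed to 1133 to 1244 with BMP4 and 478 to 508 without, with 4 of 5 tested genes higher, while Cidec and Lep were at background throughout. Adipoq, 1 of the 4, reached the signal filter described below only through its BMP4 signal and so had a difference built in. Chondrocyte markers summed to 1799 to 2005 against 735 to 805, with 4 of 7 higher and Col9a2 and Hapln1 at background throughout. Most of that sum was Sox9, with means of 1003 with BMP4 and 398 without, and Col2a1, with 494 and 119. Acan (log2 -0.04), Col11a2 (-0.06) and Comp (0.40) were not past the test. Osteoblast markers summed to 474 to 592 against 952 to 1043, with 1 of 4 lower and Dmp1 at background throughout. The 1 lower was Phex, at 355 ± 55.3 against 809 ± 35.9 (SD, n = 3), which made up most of the sum. Alpl (log2 -0.06), Sp7 (0.05) and Ibsp (0.24) were not past the test. Bglap, Runx2 and Spp1 had no named probe set. Tendon cell markers summed to 5306 to 6573 against 5491 to 6171, with 1 of 4 higher (Tnmd, log2 0.59) and Thbs4 at background. Most of that sum was Egr1, with means of 4956 with BMP4 and 5222 without. Macrophage and blood cell markers summed to 488 to 643 against 462 to 479 (Ptprc and Itgam at background). Endothelial markers summed to 147 to 245 against 234 to 259, with Pecam1 and Tie1 at background. Of 4 tested 1 was lower, Tek by -0.69 (limma adjusted p = 0.0167). Epithelial markers summed to 372 to 606 against 467 to 573. Most of the epithelial sum was Epcam, with means of 332 with BMP4 and 381 without, on a probe set with the ending _x_at explained below. Each marker was counted on its brightest probe set. Of all probe sets tested 4.2% were higher and 4.91% lower, beside which these counts of few genes stand. The part of these markers in the results on proteoglycans was not tested.

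With BMP4 the family divided. Decorin, lumican, keratocan, podocan and osteoadherin fell, asporin and prolargin rose by smaller amounts, and the probe sets chosen to represent biglycan, fibromodulin and osteoglycin did not pass the test. Signals were tested as log2(signal + 16) with limma, and a call means a Benjamini-Hochberg adjusted p under 0.05 over the 27022 probe sets kept by a signal filter. Of the 21 member probe sets 17 were kept and 8 of these were called, 3 higher and 5 lower. Of all probe sets tested 9.12% were called, 4.2% higher and 4.91% lower. Among the 17 were 3 (the Kera probe set and 2 of Fmod) that reached the filter through the signal of only 1 group and so had a difference built in. The 3 arrays of each group did not overlap at 14 of the 17, against 28.2% of all probe sets tested. With 1 probe set per gene the median log2 change of the 10 genes was -0.34, against 0.03 over all probe sets tested, and over the 17 probe sets it was 0.29, since the genes that fell have fewer probe sets. In bulk RNA a fall can mean fewer cells that express a gene or less RNA in each, which cannot be told apart here.

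**Figure D1:**
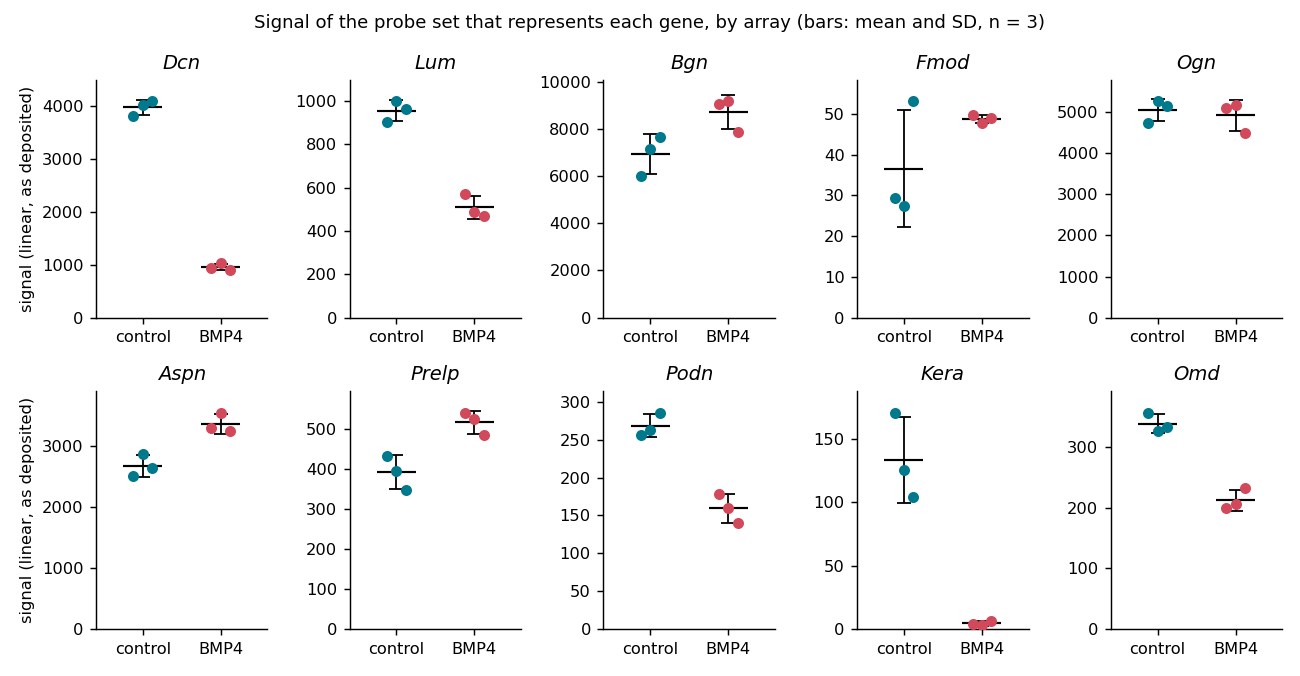
Linear signal of the probe set that represents each gene on the 3 control and the 3 BMP4 arrays; points are arrays, and bars give the mean and SD. For Dcn, Lum, Podn, Kera and Omd all BMP4 points lie below all control points, for Bgn, Aspn and Prelp all lie above, and for Ogn and Fmod the groups overlap.

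Decorin, which coats collagen fibrils and binds TGF-beta and the EGF receptor, had signals of 937, 1024 and 901 with BMP4 and 3816, 4023 and 4091 in control cells. All BMP4 arrays were thus far below all control arrays, with means of 954 ± 63.3 and 3977 ± 143 (SD, n = 3). The log2 change was -2.04 ± 0.07 (SE, limma adjusted p = 9.39e-08), a signal 4.12-fold lower, which ranked 20 among the falls of the 27022 probe sets. Another Dcn probe set, 1441506_at, had signals of 2 to 22 and was at background on every array, so it gave no test of the gene.

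Biglycan, the class I member closest to decorin in its chains, was read by 3 probe sets and had signals of 9074, 9181 and 7887 with BMP4 and 6020, 7156 and 7683 in control cells on the brightest. The groups did not overlap on any of the 3, but control replicate 3 came close to the lowest BMP4 array. The log2 values were 0.33 ± 0.11 (SE, adjusted p = 0.106), 0.29 ± 0.11 (adjusted p = 0.144) and 0.35 ± 0.11 (adjusted p = 0.0682), none past the test. With quantile normalization the first and the last passed, at 0.16 (adjusted p = 0.0157) and 0.20 (adjusted p = 0.0102). The 95% interval of the brightest was 0.08 to 0.58 before adjustment. Within arrays the log2 ratio of Dcn to Bgn was -3.25, -3.14 and -3.11 with BMP4 and -0.66, -0.83 and -0.91 without. The ratio thus differed by -2.37 between groups that did not overlap (exact permutation test, two-sided, p = 0.1, the smallest that 3 against 3 arrays allow). It was -2.33 and -2.40 with the other Bgn probe sets.

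Asporin, which competes with decorin for collagen, had signals of 3307, 3552 and 3244 with BMP4 and 2519, 2868 and 2652 without. The groups did not overlap, and the log2 change was 0.33 ± 0.08 (SE, limma adjusted p = 0.024). A second probe set gave 0.24 ± 0.08 (adjusted p = 0.0778), with groups that did not overlap either. The call on the brighter probe set was lost when arrays were centred on their medians (log2 0.23, adjusted p = 0.178) and without the signal filter (0.0584). Leaving out 1 array ended it for BMP4 replicates 1 (0.0593) and 2 (0.102) and control replicate 3 (0.077), as did a fit without the intensity trend (0.0992).

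Of the class II genes, lumican, which spaces fibrils in cornea and skin, had signals of 569, 488 and 469 with BMP4 and 904, 998 and 962 without. Its log2 change was -0.89 ± 0.08 (SE, limma adjusted p = 5.84e-05), a fall of 1.85-fold with groups well apart. Keratocan, a keratan sulfate proteoglycan best known from the cornea, had signals of 3.7, 3 and 6.5 with BMP4 and 170.5, 125.5 and 104 without. All BMP4 arrays were at background and all control arrays above it. Kera was therefore at least 5.13-fold lower, taking background as the highest bacterial control on each BMP4 array, and the fitted log2 change of -2.85 ± 0.20 (adjusted p = 9.82e-06) depends on the added 16. Osteoadherin, which is known from mineralising bone, had signals of 199, 206 and 232 with BMP4 and 356, 327 and 332 without. Its groups were also apart, with a log2 change of -0.64 ± 0.09 (adjusted p = 0.000742).

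Prolargin, which anchors basement membranes to the underlying matrix, moved the other way, with signals of 540, 525 and 484 with BMP4 and 431, 394 and 347 without. The groups did not overlap, and the log2 change was 0.39 ± 0.09 (SE, limma adjusted p = 0.0176), with 0.31 ± 0.09 (adjusted p = 0.0602) on a second probe set. The call was lost with median centring (adjusted p = 0.0635) and without the intensity trend (0.0933). Leaving out 1 array ended it for BMP4 replicates 1 (0.0537) and 2 (0.0589) and for control replicates 2 (0.0539) and 3 (0.0606). Fibromodulin, which competes with lumican for a collagen site, was dim, with signals of 2.4 to 58.1 over its 6 probe sets. Its mean was higher with BMP4 on all 6, and 3 were under the filter and not tested. The groups did not overlap on 4, against 28.2% of all probe sets tested. The mean of each of these 4 exceeded the filter signal only with BMP4. The 6 probe sets read 1 gene in the same RNA and are not separate evidence.

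The Fmod probe set with the highest mean had signals of 49.7, 47.8 and 49 with BMP4 and 29.3, 27.4 and 53.1 without. Control replicate 3 lay above all BMP4 arrays there, and the log2 value was 0.34 ± 0.20 (SE, limma adjusted p = 0.372). The probe set 1437685_x_at had signals of 51.3, 41.1 and 42.4 with BMP4 and 10.4, 14.1 and 24 without, a log2 change of 0.94 ± 0.21 (adjusted p = 0.018). That call was lost without the filter (adjusted p = 0.0589) and when BMP4 replicate 1 (0.0556), control replicate 1 (0.0709) or control replicate 2 (0.063) was left out. On 1415939_at, the Fmod probe set whose name carries no mark of shared probes, all control arrays were at background (5.9, 15.7 and 17.3) and 2 of 3 BMP4 arrays above it (20.3, 41 and 58.1). It was under the filter, but passed the filter and the test without BMP4 replicate 1 (log2 1.19, limma adjusted p = 0.0185). In that fit it reached the filter only through its BMP4 signal and so had a difference built in. The ending _x_at marks probe sets with some probes that may also bind other transcripts. Whether the probe sets of Fmod differ for that reason was not tested.

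Osteoglycin, a class III member also called mimecan, had signals of 5115, 5185 and 4499 with BMP4 and 4745, 5268 and 5166 without. The groups overlapped, and the log2 value was -0.04 with a 95% interval of -0.23 to 0.16 (limma adjusted p = 0.85), while a second probe set gave 0.07 with an interval of -0.13 to 0.26 (adjusted p = 0.721). Podocan, which is known from kidney and vessel walls, had signals of 178, 160 and 140 with BMP4 and 257, 263 and 286 without. The groups were apart, and the log2 change was -0.70 ± 0.10 (SE, adjusted p = 0.00126), or 1.63-fold lower.

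**Figure D2:**
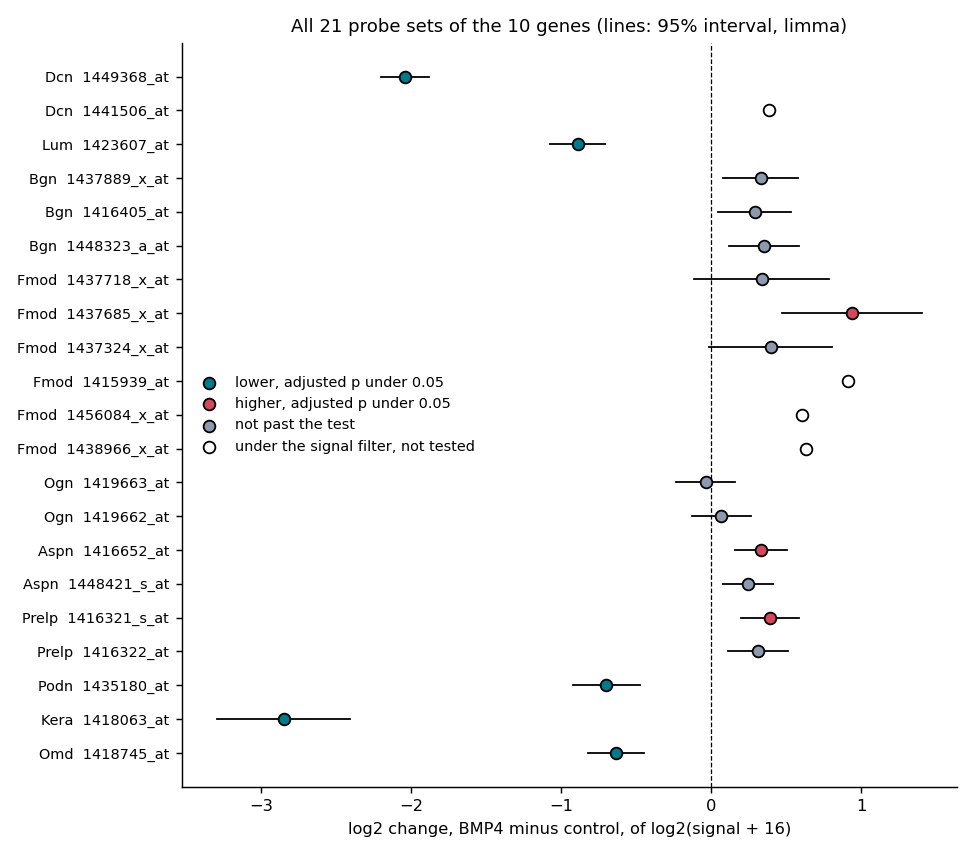
Log2 change (BMP4 minus control, of log2(signal + 16)) of each of the 21 probe sets, with 95% intervals from limma where tested; colours give the call and open circles mark probe sets under the signal filter. The 5 falls, from -0.64 to -2.85 (Kera, at background with BMP4, so that its value depends on the added 16), stand apart from the other 16 probe sets, which lie between -0.04 and 0.94.

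**Figure D3:**
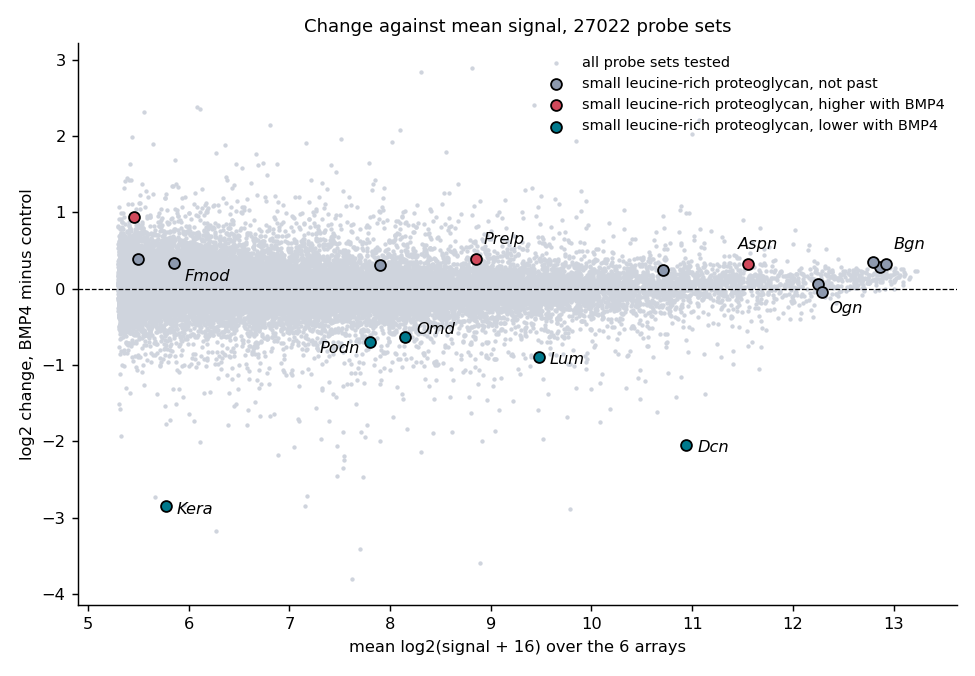
Log2 change against mean log2(signal + 16) over the 6 arrays for the 27022 probe sets tested (grey) and the member probe sets (coloured by call). Dcn, ranked 20 among the falls, and Kera, whose value is set by the added 16 since it was at background with BMP4, lie at the lower edge of the cloud. At its bright end are Bgn at 0.33 and Ogn at -0.04, neither past the test.

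Position in the genome did not go with a shared direction in 2 of the gene clusters. In the first cluster Dcn, Lum and Kera fell, whereas their neighbour Epyc, which encodes the class III member epiphycan of growth plate cartilage, had signals of 291, 305 and 394 with BMP4 and 206, 188 and 212 without. Epyc thus rose, by 0.65 ± 0.11 on the log2 scale (SE, limma adjusted p = 0.00379). In the second cluster Omd fell between Aspn, which rose, and Ogn, which did not pass. In the third, Prelp rose, Fmod did not pass on its brightest probe set, and Optc, which encodes opticin of the eye, was under the filter, with signals of 12.2 to 32.4 against 5.1 to 6.4.

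The unequal changes of neighbours were set against each other within arrays, where the scaling of the array cancels. Only the Dcn to Bgn ratio was planned, with earlier results of these data known. All of the ratios, this one too, restate the signals given above and are no separate support for those changes. The log2 ratio of Aspn to Omd was 3.95, 4.01 and 3.72 with BMP4 and 2.77, 3.07 and 2.94 without, a difference of 0.97. The ratio of Ogn to Omd differed by 0.60 and that of Dcn to Lum by -1.15, and in each case the groups did not overlap. The ratio of Prelp to Fmod, taken on the Fmod probe set with the highest mean only, differed by 0.06 with groups that overlapped. With the Dcn to Bgn ratio and that of Lum to Kera, 6 pairs were computed, over which p-values were adjusted. The Lum to Kera ratio is not given, since Kera was at background on all BMP4 arrays. By the exact permutation test (two-sided) the ratios of Dcn to Bgn, Dcn to Lum, Aspn to Omd and Ogn to Omd each gave p = 0.1 (adjusted p = 0.12), and Prelp to Fmod gave 1.

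**Figure D4:**
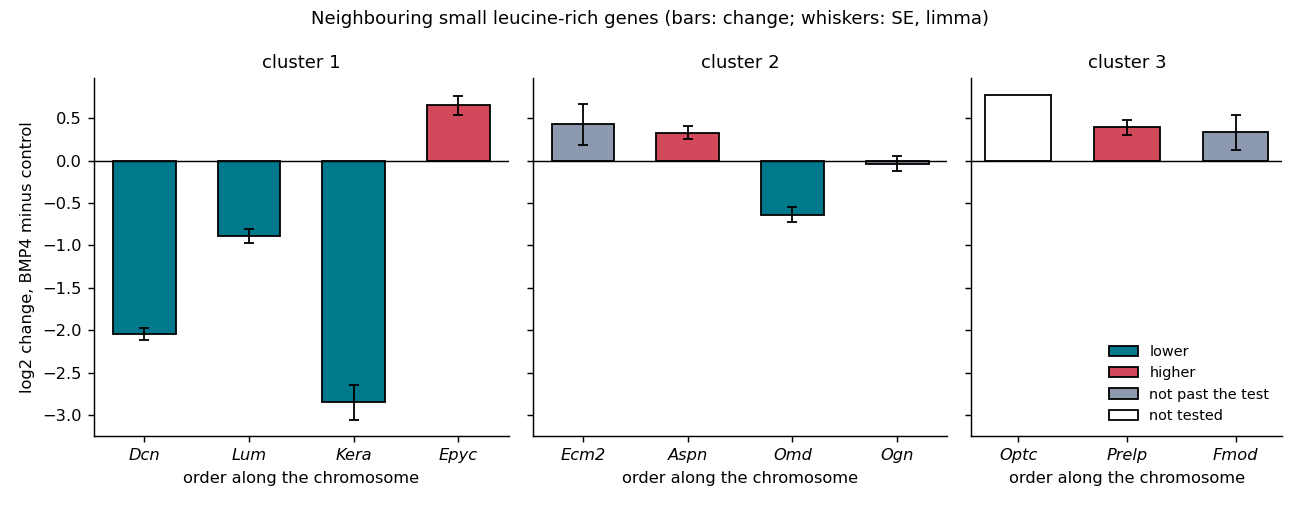
Log2 change (BMP4 minus control) of neighbouring small leucine-rich genes in the order of the RefSeq annotation; bars are changes, whiskers are SE from limma, and colours give the call. Dcn, Lum and Kera point down beside Epyc at 0.65, and Omd at -0.64 lies between Aspn at 0.33 and Ogn at -0.04.

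Other genes of the family were tested from a list of 8, of which 6 had a named probe set and 4 passed the filter. Of these Epyc alone was called, and the median of the 4 was 0.29. Of 15 collagens of the fibrils that these proteoglycans bind 2 were higher and 1 lower on the brightest probe set of each gene, with a median of 0.08, beside 9.12% called over all probe sets. The cartilage collagen Col2a1 rose by 1.92 and the minor fibril collagen Col5a3 by 0.43 ± 0.08 (SE, limma adjusted p = 0.00446), whereas Col6a3, a chain of the beaded collagen VI filaments, fell by 0.39 ± 0.07 (adjusted p = 0.00484, and 0.0516 without the intensity trend). The main fibril chains Col1a1 (0.13, adjusted p = 0.579), Col1a2 (0.19, adjusted p = 0.401) and Col3a1 (-0.01, adjusted p = 0.976) were not past the test on their brightest probe sets and are named here after their values were seen. A dimmer Col3a1 probe set was lower, at 2030 against 2752 (log2 change -0.45 ± 0.12, adjusted p = 0.0352), so the probe sets of that gene disagree.

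The sugar chains of these proteins are built by enzymes of chain start, extension and sulfation. Of 17 tested genes of chondroitin and dermatan sulfate synthesis 1 was higher and 1 lower, with a median of -0.06. Of all probe sets tested 4.2% were higher and 4.91% lower, so these counts are near the general rate. Chst11, which sulfates chondroitin at the 4 position, rose from 527 ± 36.7 to 786 ± 79.8 (SD, n = 3), by 0.56 ± 0.09 on the log2 scale (SE, limma adjusted p = 0.00175), with 0.45 (adjusted p = 0.0674) on a dimmer probe set. Csgalnact2, which starts chondroitin chains, fell by 0.44 ± 0.11 (adjusted p = 0.0253), a call lost without control replicate 1 (adjusted p = 0.107), without control replicate 3 (0.0651), without the filter (0.0656) and without the intensity trend (0.11). Of 10 tested genes of keratan sulfate synthesis 0 were higher and 2 lower by limma, with a median of -0.09. At an unadjusted p under 0.05, 3 were lower and 0 higher, a threshold for which the share of all probe sets was not computed. The 2 called were the sulfotransferase Chst2, by -0.68 ± 0.12 (limma adjusted p = 0.00429), and the galactosyltransferase B4galt2, by -0.50 ± 0.12 (adjusted p = 0.024). Another B4galt2 probe set gave -0.34 (adjusted p = 0.0628), not past the test. The B4galt2 call was lost when BMP4 replicate 1 or 3 or control replicate 1 or 3 was left out (adjusted p = 0.0516 to 0.0953), without the filter (0.0561) and without the intensity trend (0.0809).

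Of 7 tested genes for sulfate uptake and activation 1 was higher, beside 4.2% of all probe sets tested. Papss2, a synthase of the sulfate donor for all these chains, had signals of 856 ± 268 with BMP4 and 103 ± 13.4 without (SD, n = 3), a log2 change of 2.84. On 2 other probe sets Papss2 rose by 2.08 and by 1.62, or 4.22-fold and 3.08-fold against 7.16-fold on the brightest, while its relative Papss1 gave 0.09 (limma adjusted p = 0.537). The median of the 7 was 0.09.

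Of 12 tested proteases that process or cleave small proteoglycans 5 were lower and 0 higher by limma (6 and 2 at an unadjusted p under 0.05), with 1 probe set per gene and a median of -0.41. Of all probe sets tested 4.91% were lower and 4.2% higher by adjusted p. Their share at an unadjusted p under 0.05 was not computed, here or for the receptors below. A second probe set of the gelatinase Mmp2 was higher, at 3372 against 2762 (log2 change 0.29 ± 0.07, adjusted p = 0.0338), while the brightest gave 0.20 (adjusted p = 0.211). Mmp3 fell by 3.41 and Mmp13, which cleaves fibromodulin and biglycan, was at least 4.51-fold lower with all BMP4 arrays at background. Mmp13, 1 of the 5, reached the filter only through its control signal and so had a difference built in. Adamts5, an aggrecanase that also cuts decorin and biglycan, fell from 2236 ± 70.8 to 961 ± 57.8 (SD, n = 3), by 1.21 ± 0.07 (SE, limma adjusted p = 2.13e-06), with log2 changes of -1.58 and -1.47 on 2 dimmer probe sets. The other 2, named after their values were seen, were Adamts1, which fell by 1.06 (adjusted p = 4.76e-05), and Bmp1, which trims the biglycan and osteoglycin precursors and fell by 0.47 (adjusted p = 0.00727, and 0.0588 without the intensity trend). Of 11 receptors reported for small proteoglycans 3 were lower and 0 higher on the brightest probe set of each gene, with a median of -0.18. These were Egfr (-0.64 ± 0.08, adjusted p = 0.000289) and Met (-0.58 ± 0.12, adjusted p = 0.00906), growth factor receptors that decorin binds, and Tlr2 (-0.47 ± 0.12, adjusted p = 0.028), a receptor for soluble biglycan. Igf1r, the receptor of insulin-like growth factor 1, was lower on 2 dimmer probe sets (log2 changes -0.51, adjusted p = 0.00941, and -0.42, adjusted p = 0.0187) but not past the test on the brightest (-0.14, adjusted p = 0.36). At an unadjusted p under 0.05, 4 receptors were lower and 0 higher. The Tlr2 call was lost when BMP4 replicate 3 or any 1 control array was left out (adjusted p = 0.0518 to 0.0972), without the filter (0.0672) and without the intensity trend (0.103).

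Of 10 tested large or other secreted proteoglycans 2 were lower and 0 higher by limma, beside 4.91% lower over all probe sets tested. At an unadjusted p under 0.05, 2 were lower and 2 higher, and the share of all probe sets at that threshold was not computed. The median of the list was 0.05. The 2 called lower were Srgn and Esm1, the dermatan sulfate proteoglycan endocan. Srgn, the granule proteoglycan serglycin, fell from 230 ± 18.4 to 60.8 ± 17.2 (SD, n = 3), by 1.70 ± 0.16 (SE, limma adjusted p = 6.02e-05). Esm1 was at background on all BMP4 arrays and at least 2.92-fold lower (fitted log2 change -1.31, adjusted p = 0.000713). It reached the filter only through its control signal and so had a difference built in.

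**Figure D5:**
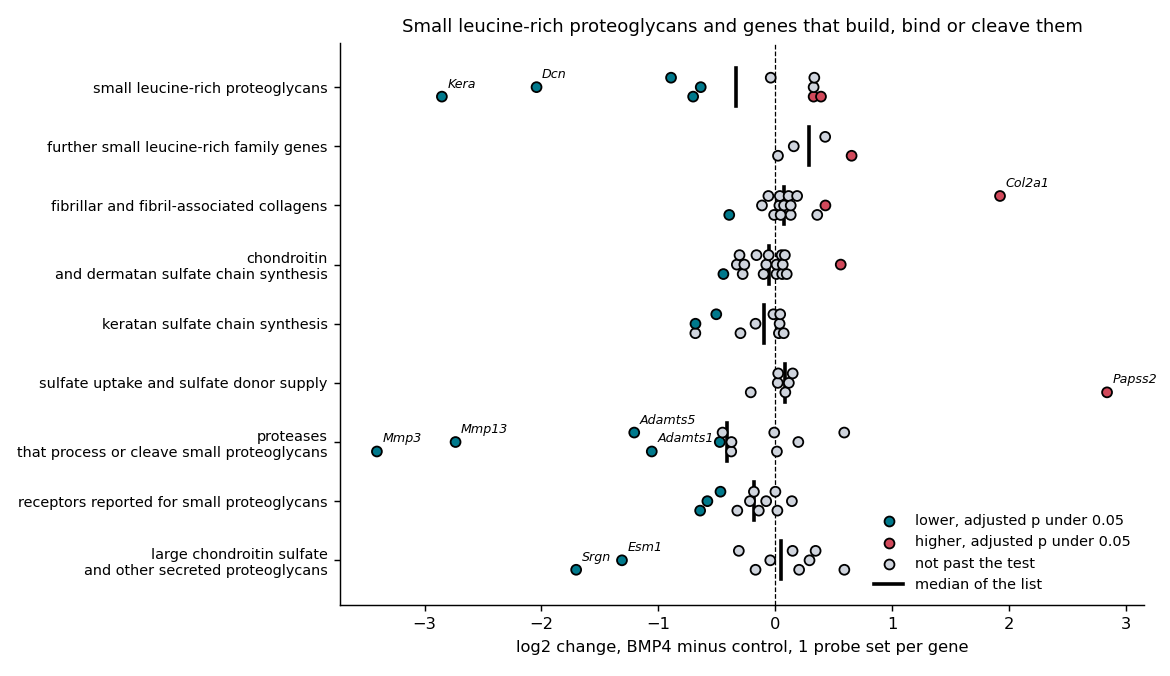
Log2 change (BMP4 minus control, 1 probe set per gene) of each tested gene in the family and in 8 related lists; colours give the call and black bars the median of the list. The family spreads from -2.85 (Kera, set by the added 16) to 0.39, chain synthesis genes lie between -0.68 and 0.56, and Papss2 is plotted at 2.84, its brightest probe set, and Mmp3 at -3.41.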

How the data were processed

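Biotin-labelled total RNA was read on 6 single-colour arrays, and the authors deposited a linear signal intensity per probe set, made with GCOS 1.3 per the submitters' processing notes. How GCOS scaled and corrected background, and the genome build, were not given in the sources read. The equal trimmed means show a common scaling, which would hide a shift shared by most transcripts. Groups and replicate numbers came from the sample titles. Of 45101 probe sets 64 controls were left out. Symbols came from the platform annotation (34945 probe sets with 1 symbol, 932 with several, 9160 unnamed here). Log2(signal + 16) was tested across all probe sets above the 40th percentile of mean log2 value (a signal of 23.5) with limma 3.58.1 in R 4.3.3, lmFit and eBayes with intensity trend, two-sided. The fit was checked on data with known changes. Fold changes on this scale understate those of dim genes. Each gene is shown by the brightest probe set that passed the filter. From each related list up to 3 called genes by size of change were named. The members and lists were chosen with earlier results of these data known, and 148 of 156 listed genes had a named probe set. Precision is limited by having 3 arrays a group.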

Additional observations from a re-analysis of the deposited data

How the results depend on the processing

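The 5 falls (Dcn, Lum, Kera, Podn and Omd) were called under every alternative run, except that a filter at the 60th percentile of signal left out Kera, which gave 4. The rises rested on the processing. Against 3 member probe sets higher, the count was 1 without the filter, 1 with each array centred on its median, 1 without the intensity trend and 6 with quantile normalization, where 2 Bgn probe sets and the second Aspn probe set also passed, and it ranged from 1 to 3 when 1 array was left out. Over all probe sets 2464 were called, 1422 without the intensity trend and 1622 to 1996 with 1 array left out, the lowest without control replicate 2. Median centring moved the median change by -0.09, and 25.1% of the calls were then higher, against 46.1%. The Dcn to Bgn ratio differed by -2.43 to -2.30 with 1 array left out, and by 0.095, 0.054 and 0.031 only where the Dcn probe set at background was used. The 2 Ogn values, near 0, changed sign in 3 cases: -0.029 with median centring and -0.021 with quantile normalization for 1419662_at, and 0.027 without BMP4 replicate 3 for 1419663_at, which ranged from -0.083 to 0.027 with 1 array left out. With the replicate number as a block 2090 probe sets were called, and 3 member probe sets were higher and 5 lower. Same-numbered samples did not deviate together (correlations of 0.01, -0.003 and -0.072), so the numbers are not read as pairs. Depth in the sense of signal over background limits Fmod, Kera with BMP4 and the second Dcn probe set.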
